A study of Mus musculus with 22 samples.

Results

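H3K27ac ChIP-seq peaks at the AP-1 genes Fos, Fosb, Fosl1, Fosl2, Jun, Junb, Jund, Atf3, Batf and Batf3 were examined in BcorΔE9-10 myeloid progenitors. These 10 genes, of 21938 protein-coding genes in the gene models, were taken by name, and every peak overlapping a gene body or the 50 kb on either side of it was collected. After merging overlapping peaks of the 3 libraries, 75 of 34595 regions lay in these windows. A region was a TSS region when it came within 2.5 kb of an annotated transcription start site (TSS) of the gene and distal otherwise, which gave 17 TSS and 58 distal regions. No region fell in the windows of 2 of the genes, although Fos and Batf start 212.8 kb apart on chromosome 12.

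The libraries were made from KL cells, the lineage-negative, cKit-positive and Sca-1-negative cells of bone marrow, sorted by flow cytometry from male C57BL/6 mice. All 3 mice carried scl-Cre-ERT and a floxed allele of the X-linked gene Bcor (Bcorfl/y), received intraperitoneal tamoxifen (1 mg per day for 5 days) when 3 to 6 months old, and were sampled 20 weeks later. The Cre is driven by a promoter of haematopoietic stem cells, so that deletion of exons 9 and 10 of Bcor in KL cells is inherited from recombined stem cells, and unrecombined cells may have remained in the sort. Peak positions do not show whether the exons were lost, so the deletion was not checked here. The study itself genotyped sorted KL cells by PCR at 20 weeks and calls the recombination efficient. The 22 samples of the series fall into 11 groups, and only this group of 3 was used, for which the methods of the study name 3 mice. With no second group for this mark, nothing below compares genotypes.

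AP-1 is a dimer of basic leucine zipper (bZIP) proteins: a Fos protein cannot pair with itself and needs a Jun protein, whereas Jun proteins also pair with one another and with relatives of the ATF and BATF type. Many of these genes are immediate-early genes, which are switched on within minutes of a growth factor or stress signal through kinase cascades that act on factors already bound at the promoter. In haematopoiesis AP-1 proteins take part in the differentiation of monocytes and granulocytes. H3K27ac marks active promoters and enhancers. In a sorted population, fewer cells carrying the mark and less of it in each cell cannot be told apart.

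Sequences at or beside the H3K27ac peaks described below were read from the GRCm38 reference, 5′ to 3′. Not all of their bases lay in a peak. Most of the Jun sequence fell between 2 regions, the first ending at 95052245 and the second starting at 95052488. The Jund sequence from 70698723 on also lay in no peak of any library. Capitals mark matches to the motifs, which were searched on both strands. These were TGANTCA (the AP-1 site with any base in the middle, and so a broader pattern), TGACGTCA (the cAMP response element) and its part TGACGT. The others were TGACATCA (the form known at Jun) and the CArG box bound by serum response factor. The promoters of Fos, Fosb, Jun and Jund are shown since they hold the less common of these motifs. The regions upstream of Fos and of Junb are shown since they had the highest fold enrichment among distal regions of these genes that were away from other TSSs.
Fos promoter, chr12:85473540-85473839, plus strand: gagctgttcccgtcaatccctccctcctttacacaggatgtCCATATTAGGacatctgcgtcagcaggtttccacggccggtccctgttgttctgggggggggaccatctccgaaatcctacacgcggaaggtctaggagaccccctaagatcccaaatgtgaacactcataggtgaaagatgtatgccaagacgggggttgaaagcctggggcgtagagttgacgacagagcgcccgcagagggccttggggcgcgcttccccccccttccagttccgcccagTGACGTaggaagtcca
Fosb promoter, chr7:19310102-19310401, minus strand: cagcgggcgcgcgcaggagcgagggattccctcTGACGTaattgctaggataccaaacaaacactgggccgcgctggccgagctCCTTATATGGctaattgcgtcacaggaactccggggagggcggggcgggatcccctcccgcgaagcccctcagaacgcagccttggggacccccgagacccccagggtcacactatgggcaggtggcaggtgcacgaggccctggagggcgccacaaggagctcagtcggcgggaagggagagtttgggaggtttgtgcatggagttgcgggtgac
Jun promoter, chr4:95052223-95052472, minus strand: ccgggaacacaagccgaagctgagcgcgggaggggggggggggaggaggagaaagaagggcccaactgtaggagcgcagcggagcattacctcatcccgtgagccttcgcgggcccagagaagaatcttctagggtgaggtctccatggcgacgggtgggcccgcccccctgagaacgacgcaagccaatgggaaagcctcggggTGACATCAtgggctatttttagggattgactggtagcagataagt
Jund promoter, chr8:70698599-70698898, plus strand: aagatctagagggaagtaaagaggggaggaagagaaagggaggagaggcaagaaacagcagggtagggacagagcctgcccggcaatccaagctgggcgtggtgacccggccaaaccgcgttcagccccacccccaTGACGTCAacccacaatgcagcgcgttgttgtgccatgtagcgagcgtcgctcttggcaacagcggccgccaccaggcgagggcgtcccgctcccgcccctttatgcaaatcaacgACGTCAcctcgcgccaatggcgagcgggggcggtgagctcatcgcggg
Junb −7.0 kb region, chr8:84985546-84985845, plus strand: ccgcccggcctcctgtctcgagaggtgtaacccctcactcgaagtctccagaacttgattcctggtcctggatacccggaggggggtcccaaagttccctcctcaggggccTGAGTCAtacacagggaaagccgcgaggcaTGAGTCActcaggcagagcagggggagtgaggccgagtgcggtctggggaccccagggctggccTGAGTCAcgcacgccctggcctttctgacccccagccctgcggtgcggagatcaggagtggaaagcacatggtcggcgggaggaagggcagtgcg
Fos −18.1 kb region, chr12:85455594-85455893, plus strand: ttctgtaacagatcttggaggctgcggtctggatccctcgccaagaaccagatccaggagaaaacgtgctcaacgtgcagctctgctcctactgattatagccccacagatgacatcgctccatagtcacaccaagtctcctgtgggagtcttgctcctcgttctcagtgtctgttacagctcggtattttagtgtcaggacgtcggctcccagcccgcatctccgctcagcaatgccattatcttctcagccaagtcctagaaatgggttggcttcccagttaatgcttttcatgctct

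To place these genes among active promoters, the highest TSS peak of each gene was taken from each library. Its value is the fold enrichment of the peak caller. This divides the fragments counted at a summit, plus 1, by those its background model predicts there, plus 1. In replicate 3 the count was first scaled by 0.983. Of the 10 genes, 8 had a TSS peak in all 3 libraries, beside 43.9% of protein-coding genes. In fold, Fosb carried the highest mean and Jun the next, although Junb was above Jun in replicate 1. This order rests on the predicted background as well as on the fragments. Fosl1 had a TSS peak in 1 library and Batf3 in none, and no TSS peak at all was found for 50.1% of protein-coding genes. Of the 17 TSS regions, 11 had a peak in all 3 libraries, beside 59.6% of all regions within 2.5 kb of a TSS. Ranking a missing value lowest, the median over the 10 genes was 13.1, and 6 genes lay above 10.2, the median of the 9637 protein-coding genes with a TSS peak in all 3 libraries.

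**Figure D1:**
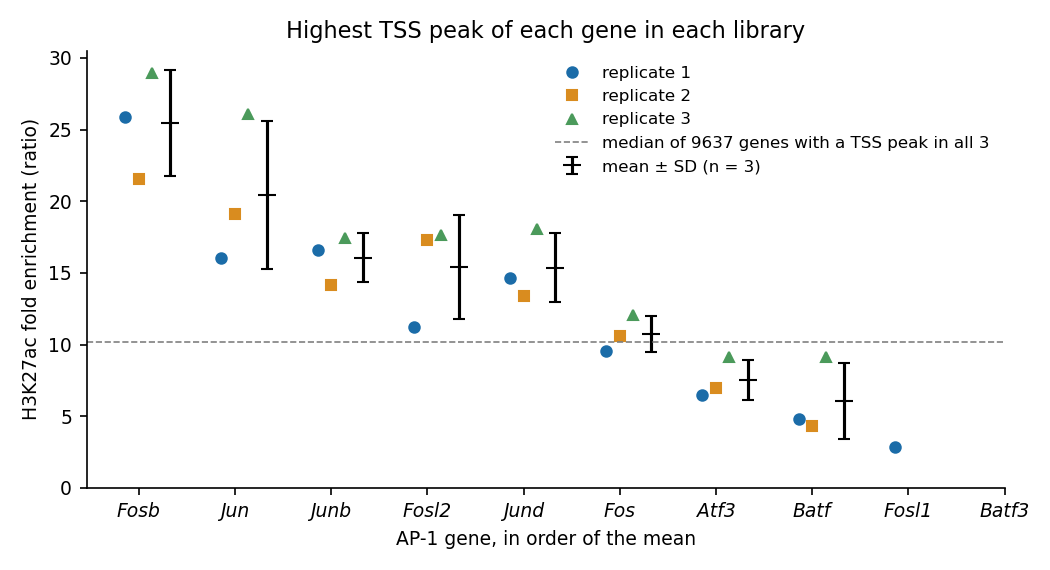
Fold enrichment of the highest TSS peak (vertical axis, a ratio) for each of the 10 AP-1 genes, ordered by the mean, with 1 symbol per library, the mean ± SD over 3 libraries in black and the median of 9637 genes as a dashed line. The points of Fosb and Jun all lie above the dashed line, those of Atf3 and Batf all below it, and Fosl1 has 1 point at 2.85 while Batf3 has none.

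Among the Fos proteins, Fosb encodes a partner of Jun with a strong activation domain. At Fosb (chr7:19302696-19310051, minus strand), fold enrichment was 25.9 in replicate 1, 21.6 in replicate 2 and 29.0 in replicate 3 (25.5 ± 3.71, SD, n = 3), from 94, 81 and 111 fragments. All 3 values lay above the upper quartile of the 9637 genes, 14.9, and the mean was at percentile 96.5. The exact Poisson 95% interval in replicate 3 ran from 23.9 to 34.8, which covers counting error only.

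Fos encodes the protein after which the family is named and the one most rapidly induced. At Fos (chr12:85473890-85477273, plus strand), the TSS peak had a fold enrichment of 9.52, 10.6 and 12.1 in replicates 1, 2 and 3 (10.7 ± 1.29, SD, n = 3), from 43, 50 and 58 fragments. Fos thus stood near the middle of all promoters in height, at percentile 53.5, and its 3 values did not overlap those of Fosb. In width it stood higher: TSS peaks covered a mean of 2234 bp at Fos, percentile 92.9, against a median of 1001 bp over the 9637 genes. This width sums all TSS peaks at every annotated start of a gene. It was not adjusted for the number of starts.

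Fosl2 encodes a Fos protein that lacks the strong activation domain of Fos and Fosb. Its TSS peak (gene at chr5:32135801-32157842, plus strand) had values of 11.2, 17.3 and 17.6 (15.4 ± 3.62, SD, n = 3), so replicate 1 stood apart below the other two. Fosl1 (chr19:5447547-5455946, plus strand), which encodes the other such protein, had 1 TSS peak, in replicate 1, of 214 bp with a fold enrichment of 2.85. That peak rested on 10 fragments (exact Poisson 95% interval of the fold 1.502 to 5.02). The smallest number of fragments at any called summit was 8, 8 and 9 in the 3 libraries, so acetylation below that number was not detectable.

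The 3 Jun genes all had TSS peaks in every library. Jun (chr4:95049034-95052222, minus strand), whose protein is the main partner of Fos, had values of 16.1, 19.1 and 26.1 (20.4 ± 5.15, SD, n = 3), the largest SD of the 8 genes, and was at percentile 90.5. Junb (chr8:84974484-84978718, minus strand), which encodes a Jun protein that restrains proliferation of myeloid progenitors, had 16.6, 14.1 and 17.4 (16.1 ± 1.72, SD, n = 3). Its TSS peaks, 4, 3 and 3 in the 3 libraries, were together the broadest, covering a mean of 4340 bp, percentile 99.6, which is longer than the gene is. Jund (chr8:70698949-70700616, plus strand), the Jun gene that is expressed without induction in most cells, had 14.6, 13.4 and 18.1 (15.4 ± 2.43, SD, n = 3). In fold, both Junb and Jund were lowest in replicate 2, whereas Jun was lowest in replicate 1. The summits held 61, 64 and 84 fragments at Jun, 58, 51 and 65 at Junb and 61, 66 and 91 at Jund. By fragments Jund was thus not below Jun or Junb in any library.

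Atf3 and Batf, whose proteins pair with Jun proteins in stress responses and in lymphoid and dendritic cells, were the lowest of the 8. Atf3 (chr1:191170296-191218039, minus strand) had 6.49, 6.95 and 9.10 (7.51 ± 1.40, SD, n = 3), at percentile 29.1. Its TSS peak lay at a start site inside the gene, 35.0 kb downstream of the annotated 5′ end, and with the 5′ ends of genes alone the number with a TSS peak in all 3 libraries was 7. Batf (chr12:85686669-85709087, plus strand) had 4.78, 4.30 and 9.10 (6.06 ± 2.65, SD, n = 3), from 13, 12 and 27 fragments. Replicate 3 gave Batf the same value as Atf3, and the other 2 libraries gave it lower ones. Batf3 (chr1:191097847-191108945, plus strand), known for its role in dendritic cells, had no TSS peak in any library.

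**Figure D2:**
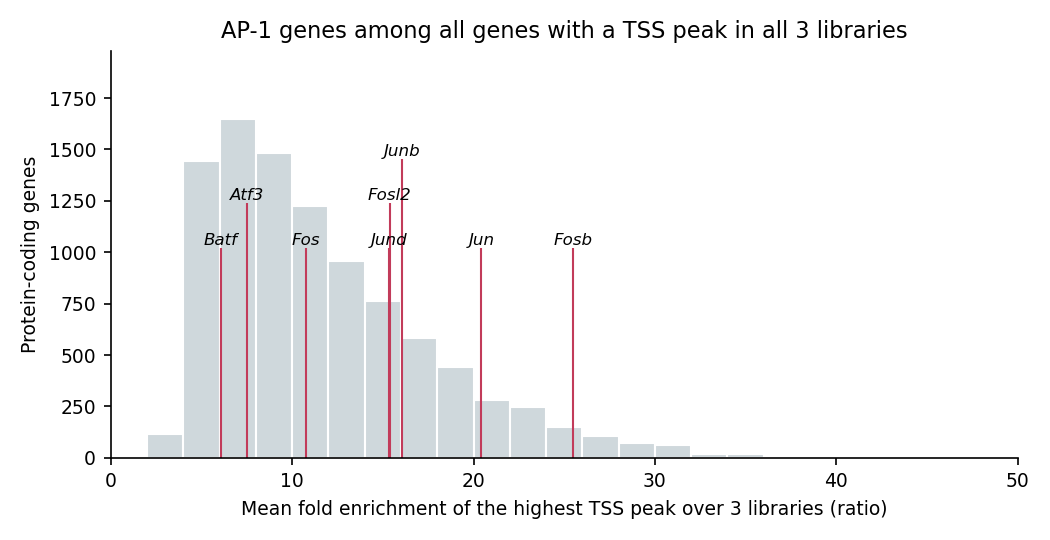
Histogram of the mean fold enrichment of the highest TSS peak (horizontal axis, a ratio over 3 libraries) for the 9637 protein-coding genes with a TSS peak in all 3 libraries (vertical axis, number of genes), with the 8 AP-1 genes as red lines whose heights carry no value. Batf and Atf3 lie left of the median of 10.2, Fos just right of it, and Fosb in the upper tail at 25.5.

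Neighbours in this order were compared within libraries by an exact sign-flip permutation test, two-sided, in which 3 libraries cannot give a p below 0.25 (7 comparisons). The order itself came from the means of the same values. For both reasons the test cannot establish any step of the order, and the differences are given as description. Fosb was above Jun in 3 of 3 libraries, by 5.05 ± 4.14 (SD of the difference, n = 3; exact p = 0.25, Benjamini-Hochberg adjusted 0.583). Jund was above Fos in 3 of 3, by 4.63 ± 1.66, and Fos above Atf3 in 3 of 3, by 3.23 ± 0.391 (SD, n = 3; exact p = 0.25 and adjusted 0.583 for each). The remaining neighbours were not in the same order in every library. Jun against Junb (exact p = 0.5, adjusted 0.7), Junb against Fosl2 and Fosl2 against Jund (exact p = 1 for both) differed by less than the SD of the difference, and Atf3 was above Batf in 2 of the 3 libraries and equal to it in replicate 3 (exact p = 0.5, adjusted 0.7). No pair of neighbours was therefore ordered by the test. For Fosb over Jun, Jund over Fos and Fos over Atf3, only the same direction in every library can be stated. Neighbours among Jun, Junb, Fosl2 and Jund also changed order between libraries.

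Replicate 3 gave the highest TSS value at all 8 genes. The median ratio over the 8 was 1.34 against replicate 1 and 1.33 against replicate 2, and over the 9637 genes it was 1.16 for both. Replicate 3 was also the deepest library, with 19.3 M reads recovered from the peak statistics against 18.0 and 18.9 M, and the part of depth in this difference was not tested. Leaving it out moved the mean of Batf to 4.54 and that of Jun to 17.6.

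Measured from 1 annotated start of each gene, the summit lay upstream at Fos and Fosb and downstream at the other 6 genes. At Fos the highest TSS summit lay at −167, −186 and −176 bp from the TSS in the 3 libraries, and at Fosb at −145, −149 and −156 bp, in both cases upstream and within a peak that covered the TSS. At Jun it lay inside the gene at 644, 569 and 535 bp, at Junb at 688, 406 and 813 bp and at Jund at 661, 847 and 603 bp. It was closer to the start at Fosl2 (383, 304 and 241 bp), Atf3 (354, 266 and 280 bp) and Batf (95, 401 and 120 bp). At Fosl2 and Atf3 the distance depends on the start chosen. From the nearest annotated start of the gene, the replicate 3 summit lay upstream at Fosl2, at −131 bp, and at 48 bp at Atf3. Regions on either side of the start used left a gap with no peak of any library at Junb (310 bp), Jund (261 bp) and Atf3 (469 bp). No test of this difference was made, since each gene is 1 promoter.

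The motif matches were set beside these peaks. In windows from 500 bp before to 50 bp after the TSS, the CArG box was present in 2.61% of 54361 windows of coding transcripts and in those of Fos and Fosb. Each of the 10 genes had 1 window, which at Atf3 was placed at the start inside the gene, near its TSS peak. The 54361 windows were of coding transcripts in general and were not chosen by acetylation. Their shares are therefore a general rate and not a matched background. The Fos box, CCATATTAGG at −309 bp, and the Fosb box, CCTTATATGG at −266 bp, both lay inside the TSS peak in 3 of 3 libraries. Fos also held TGACGT at −66 bp, inside the peak in 3 of 3, and TGAATCA at −462 bp, inside a peak in 2 of 3. TGACATCA, in 3.72% of windows, was found at −45 bp of Jun, and TGACGTCA, in 2.53%, at −214 bp of Jund. Both of these lay in no peak of any library, the Jund match within the gap at its start.

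TGACGT in either orientation was the most widespread, in 7 of the 10 windows beside 11.4% of all windows. Since the 2 sets are not matched, this contrast does not show a trait of these genes. At Jund it is part of the TGACGTCA match, with another at −98 bp. Single matches were found at Fosb, Jun, Atf3 and Batf, and Fosl2 had 2. TGANTCA was found in the window of Fos alone, beside 12.2% of all windows. The windows of Junb, Fosl1 and Batf3 held none of the 5 motifs. A match is a run of letters and not evidence of binding.

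Distal peaks were next separated by whether another gene starts there. In all, 8 of the 10 genes had a distal peak in all 3 libraries, beside 57.0% of protein-coding genes and 77.8% of those with a TSS peak in all 3, the exceptions being Fosl2, with none, and Jun, with 1 peak in replicate 1 (3.07). Of the 58 distal regions, 35 came within 2.5 kb of a TSS of another gene. The other 23 lay between genes (17) or in introns (6), and 8 of them had a peak in all 3 libraries, beside 16.7% of the 14757 regions of the whole data set that were away from every TSS. Counting genes, 5 had such a distal peak in each library (Fos, Fosb, Junb, Atf3 and Batf), beside 18.3% of protein-coding genes and 29.6% of those with a TSS peak in all 3 libraries. Where the same region had to carry the peak in all 3, Atf3 was lost and 4 remained.

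**Figure D3:**
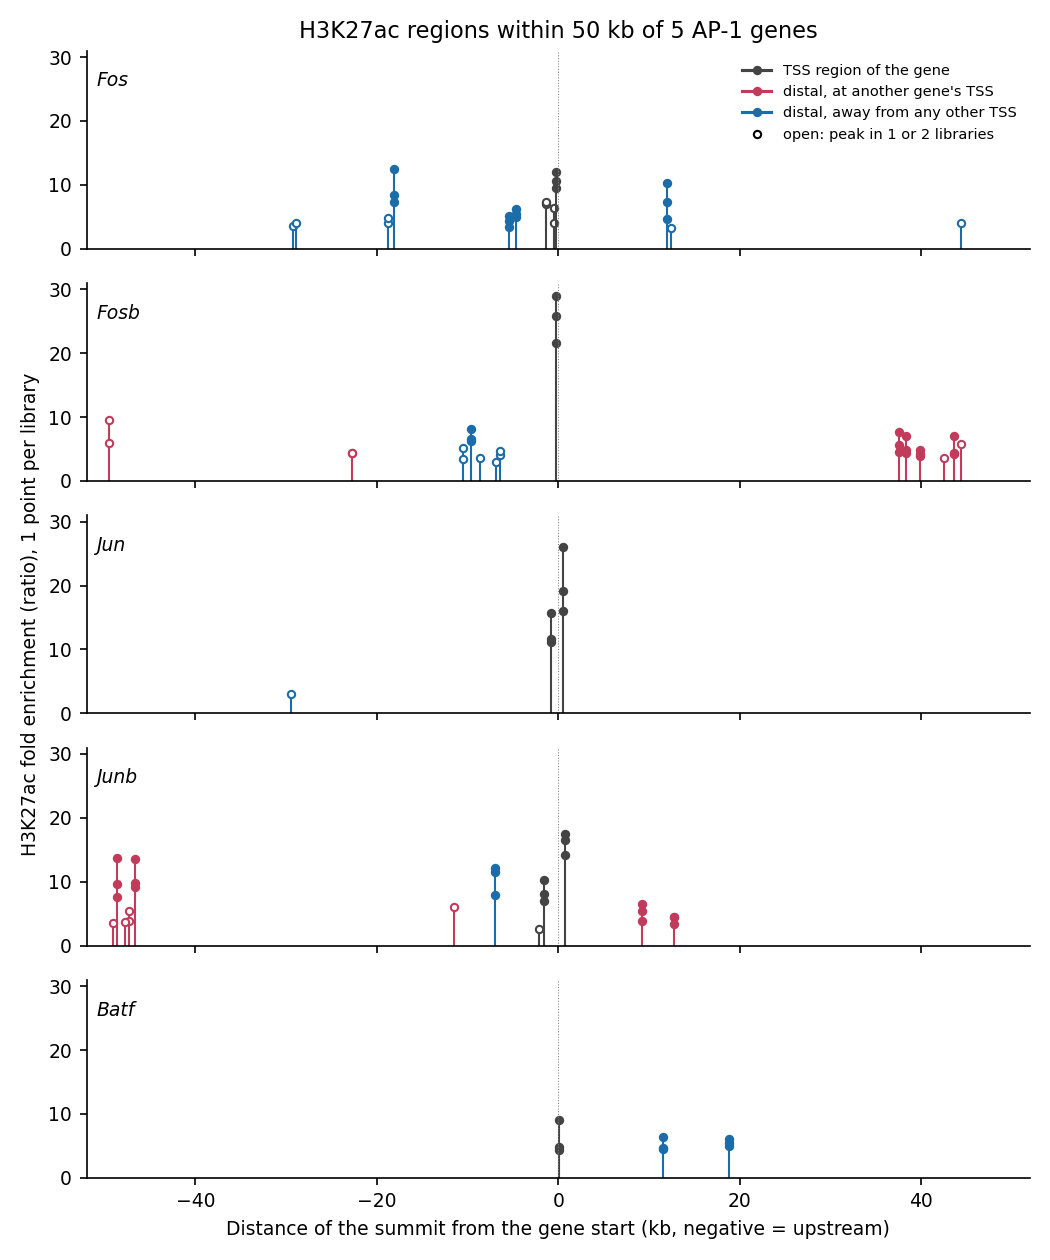
Fold enrichment (vertical axis, a ratio, 1 point per library) of each H3K27ac region within 50 kb of Fos, Fosb, Jun, Junb and Batf by the distance of its summit from the gene start (horizontal axis, kb), coloured by class, with open points for regions found in 1 or 2 libraries. Fos has blue regions on both sides of its start and no red one, whereas Jun has signal at its start and 1 weak distal region at −29.5 kb.

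Fos had the most. All 9 distal regions at Fos lay between genes, none at another TSS, and 4 of them had a peak in all 3 libraries. The highest, at −18.1 kb (chr12:85455520-85456126), had a fold enrichment of 12.49, 7.25 and 8.36 in replicates 1, 2 and 3 (9.36 ± 2.76, SD, n = 3). In fold, it stood above the Fos TSS peak in replicate 1 (ratio of TSS to distal 0.762). In the other 2 the TSS peak was higher (1.47 against the −18.1 kb region in replicate 2 and 1.17 against the +12.0 kb region in replicate 3). By fragments the −18.1 kb summit was not above the TSS in replicate 1, with 41 against 43.

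The region at 12.0 kb, downstream of Fos (chr12:85485434-85486025), had 7.25, 4.67 and 10.3 (7.41 ± 2.83, SD, n = 3). A pair of weaker regions lay at −5.4 kb, with 4.34, 3.33 and 5.08, and at −4.7 kb, with 5.45, 6.19 and 4.92. Among the 2460 regions away from every TSS and found in all 3 libraries, whose median was 4.94, these 4 stood at percentiles 94.7, 87.8, 24.0 and 65.3 in the order given. The largest relative spread between libraries was therefore at the −18.1 and 12.0 kb regions, where replicates 1 and 3 were high in turn. Fos was among the genes that the study singled out in part from these libraries, so its regions are not independent evidence.

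Junb had 1 region away from other TSSs, at −7.0 kb (chr8:84985399-84986591), with a fold enrichment of 11.6, 7.86 and 12.2 (10.6 ± 2.36, SD, n = 3). It was the highest such region of the 10 genes, at percentile 96.4. Its 300 bp summit window, printed above, holds TGAGTCA at −39, −9 and 55 bp from the summit, all inside the peak in 3 of 3 libraries. TGANTCA was present in 8.54% of the 2460 windows of this kind, and this was the only one of them with 3 copies or more (0.0407%). It was singled out after the matches were seen. None of the 5 motifs was found in the windows of the other 7 regions of this kind at Fos, Fosb and Batf.

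Fosb had 5 distal regions away from other TSSs, all between genes and within 10.5 kb upstream, of which that at −9.6 kb (chr7:19319298-19320087) was found in all 3 libraries with 6.65, 6.20 and 8.10 (6.98 ± 0.994, SD, n = 3). The Fosb TSS exceeded it 3.89, 3.48 and 3.57 times. Batf had 2 regions in its own introns, at 11.6 kb with 4.44, 4.60 and 6.39 and at 18.8 kb with 4.99, 5.48 and 6.10. The TSS peak of Batf came to 0.958, 0.785 and 1.42 of the higher of these, so that only in replicate 3 was the TSS above both in fold. By fragments it was not above both in replicate 3, with 27 against 25 at 11.6 kb and 30 at 18.8 kb. Away from other TSSs, Atf3 had only weak intronic regions, each in 1 or 2 libraries, and Jund had 1 at −3.2 kb in 2 libraries (3.41 and 3.51).

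Regions at other genes' TSSs made up the rest. Of the 6 genes with TSS and distal peaks in all 3 libraries, the TSS peak was above the highest distal peak in each library at Fosb and Junb, beside 34.9% of 7497 such genes. This held within 50 kb: within 100 kb the mean of the highest distal fold was 20.8 at Junb, above its TSS mean of 16.1, and 13.4 at Fosb, still below its TSS mean of 25.5. Atf3 was the opposite: a region at −6.7 kb (chr1:191223950-191225503), at the TSS of the noncoding gene D730003I15Rik, had 14.5, 18.0 and 23.8 (18.8 ± 4.67, SD, n = 3), and the Atf3 TSS peak came to 0.446, 0.386 and 0.383 of it. Which of the genes this region serves is not shown by its position.

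At Fosl1, all 10 distal regions lay at TSSs of other genes. The highest, at 4930481A15Rik, had 17.9, 14.5 and 17.0, and that at Cfl1 and Mus81, which encode an actin-severing protein and a DNA endonuclease, had 11.7, 9.16 and 17.7. Regions at Drap1 and AI837181, Ccdc85b and Fibp were also found in all 3 libraries. The gene with the weakest TSS of those detected thus lay among promoters of other genes, 7 of whose regions had a peak in all 3 libraries. The region at Nsl1 and Tatdn3, near Batf3, was low at 4.34, 4.60 and 5.41.

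The region at Lsm4, a gene of RNA processing near Jund, had 14.5, 14.6 and 16.4, close to the Jund TSS in each library. Near Junb, regions in all 3 libraries lay at Trir and Asna1, with a highest value of 13.7 in replicate 3, and at Prdx2 and Rnaseh2a, with one at Hook2 in replicate 3 only. Near Fosb, 4 such regions lay at Vasp, an actin regulator, while those at Ppp1r13l and Cd3eap and at Gm44698 were found in 2 libraries.

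Peaks were then stitched into larger regions at the distance customary for super-enhancers, between the 5 and 20 kb tried as alternatives. The regions were ranked by the sum of fold enrichment times length, and those past the point of slope 1 on the ranked curve were kept. These numbered 1383, 1083 and 1190 in replicates 1, 2 and 3. In at least 2 libraries 4 of the 10 genes were assigned such a region (Fos, Fosb, Jun and Junb, each in 3 of 3), beside 17.4% of 10281 genes with a TSS peak in at least 2. Junb ranked highest, at 71 of 11779 regions in replicate 1, 78 of 12327 in replicate 2 and 37 of 11525 in replicate 3. Ranked by length alone, Jun passed in 1 library and the count was 3. The region of Junb, of 21014, 20567 and 24702 bp, also took in the peaks at the TSSs of Prdx2 and Rnaseh2a. The paper, ranking tag counts with another program, reports far fewer super-enhancers from the same libraries, so the cutoff here was looser. Of the 10 genes, only Fos is among its differentially expressed factors with a super-enhancer. Fosb and Fosl2 are on its list of differentially expressed factors but not among those with a super-enhancer.

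**Figure D4:**
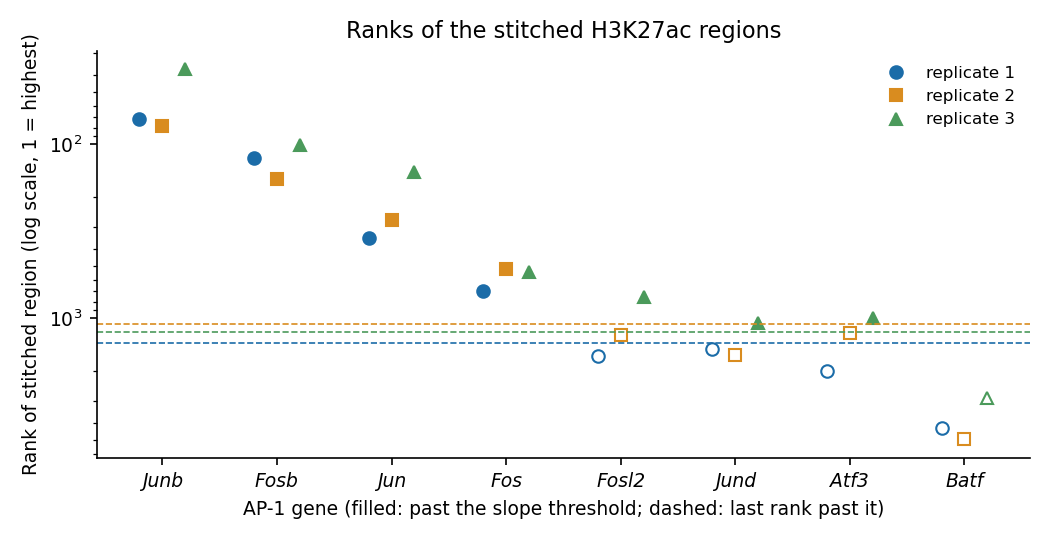
Rank of the stitched H3K27ac region assigned to each AP-1 gene (vertical axis, log scale, 1 is highest) in each library, filled where it passed the slope threshold, with the last rank past it (1383, 1083 and 1190 in replicates 1, 2 and 3) as dashed lines. Junb, Fosb, Jun and Fos are filled in every library, Fosl2, Jund and Atf3 in replicate 3 alone, and Batf in none, while Fosl1 and Batf3 had no region assigned.

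The 4 regions differed in make-up. That of Fosb ranked 120, 158 and 101 and held 2, 4 and 7 peaks. Jun ranked 343, 272 and 145 with only the 2 peaks at its start, over 3097, 2949 and 3197 bp, so that it passed on the signal around its start alone. Both regions at its start also came within 2.5 kb of a TSS of Junos, and 1 of them of Gm12703. Likewise, the TSS regions of Fosl2 and Jund came within 2.5 kb of TSSs of Gm10463 and Gm11175. The region of Fos held 6, 8 and 10 peaks over 30464, 31630 and 41395 bp, the longest of the 4. With peaks within 2.5 kb of a TSS left out before stitching, Fos was the only one to pass in at least 2 libraries and did so in 3 of 3. With a stitching distance of 5 kb, 7 passed. Fosl2, Jund and Atf3 passed in replicate 3 alone, the region of Atf3 being the one at D730003I15Rik, and Batf ranked 4284, 4956 and 2863.

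Other genes of the pathway were described from lists of names. Of 25 other bZIP genes, 20 had a TSS peak in all 3 libraries, beside 43.9% of protein-coding genes. Their median was 13.4 when missing values ranked lowest. The highest were Atf4, a regulator of the amino acid response, with 32.7, 25.3 and 40.1, Atf1, a relative of Creb1, with 27.8, 31.2 and 37.9, and Maff, a small Maf protein, with 28.7, 20.0 and 31.9. All of these values lay above that of Fosb in the same library except that of Maff in replicate 2.

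Of 16 upstream kinases and factors, 13 had a TSS peak in all 3 libraries, with a median of 9.73. Among the highest were Elk4, a ternary complex factor that binds next to serum response factor, with 39.3, 29.2 and 36.0, and Srf, serum response factor itself, with 16.4, 17.5 and 24.1. All 17 of the other immediate-early genes had a TSS peak in all 3 libraries, with a median of 11.7. Nr4a2, a nuclear receptor gene, led with 35.3, 28.4 and 35.9, followed by Dusp1, a phosphatase of MAP kinases, with 20.0, 22.4 and 25.9, and Klf6, a zinc finger factor, with 26.2, 18.6 and 23.5. Of these 17 genes, 11 had a distal peak away from other TSSs in all 3 libraries, as had 7 of the 25 and 6 of the 16. The share was 18.3% of protein-coding genes and 29.6% of those with a TSS peak in all 3 libraries. Whether the lists differ from these shares was not tested.

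The promoters closest to Fosb by their log2 TSS folds in the 3 libraries (Euclidean distance among 9637 genes) were Rbm39, Dcaf1 and Cpsf2, at 0.042, 0.057 and 0.058. Among those closest to Fos were Gtf3c4 and Ddx31, both at 0.031 and with the same values. In the sorted cells all 8 progenitor markers (Kit, Gata2, Myb, Runx1, Spi1, Cebpa, Cd34 and Mpo) had a TSS peak in all 3 libraries, with means from 5.02 to 9.77. Among markers of mature cells, Cd5 had one in all 3 (mean 5.01), Ngp in 1 library, and Itgam and Ly6g in none. The 4 markers of other tissues (Alb, Ins2, Myod1 and Krt5) had none.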

How the data were processed

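H3K27ac ChIP-seq peak lists of 3 BcorΔE9-10 KL libraries were analysed, and the other 19 samples were not used here. Per the labels and methods, the authors used Bowtie2 to align reads to GRCm38, discarded duplicates and ran MACS2 2.1.1 on each library by itself. The deposited lists give a fold enrichment (a ratio that is not scaled across libraries), the −log10 of p- and q-values, and a score deposited by the authors that was not used. The control and settings of the peak caller were not given in the sources used here. The largest q was 0.0499.

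Rows of 1 interval were joined, keeping the highest fold. The lists hold no read numbers, so fragments were solved from fold and p at each summit (100% of rows solved, tolerance 0.001; the procedure was tested on simulated data). Depth was 18.0, 18.9 and 19.3 M reads, and the median summit held 17, 17 and 21 fragments. Intervals are exact Poisson at 95% and cover counting error only. Gene models were GENCODE M21, and sequences were RefSeq GRCm38.p6, the build of the files (no peak ran past 99.9% of a chromosome). Coordinates count from 1, and overlaps from 1 bp.

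The genes, lists, windows and tests were chosen with earlier results of these data known. Named beside the 10 genes were the 3 highest of each list and the 3 nearest profiles to Fosb and Fos. Also named were genes whose TSS lies within 2.5 kb of a region of the 10 genes. Some results on listed genes and nearest profiles are not reported here. Of 18 upstream genes listed, 16 matched a symbol. The distal motif windows span 300 bp. Alternatives were a −log10 q of at least 5, other windows, stitching distances and scalings, and leaving out each library. Analyses used Python 3.11.15, pandas 2.3.3, numpy 2.4.6 and scipy 1.17.1.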

Additional observations from a re-analysis of the deposited data

How the results depend on the processing

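Counts over the 10 genes changed least at the TSS. The number with a TSS peak in all 3 libraries was 7 with a −log10 q of at least 5 (Batf was lost) and with gene 5′ ends alone (Atf3 was lost), and 8 in the other settings tried. The median TSS fold fell to 8.97 when the TSS peaks of a gene were averaged instead of taking the highest. The number with a distal peak in all 3 libraries fell to 5 without peaks at other genes' TSSs, a setting in which no median over the 10 exists, and to 4 when 1 region away from them had to carry the peak in all 3, an alternative chosen after seeing the data. The median of the highest distal fold rose to 15.9 within 100 kb, with Junb at 20.8 and Fos at 18.3, both above their TSS means. Genes with a stitched region past the threshold numbered 7 at a stitching distance of 5 kb and 1 without peaks at TSSs, and Jun was lost when length alone set the rank. Ranked by −log10 p, Jund stood at 3 and Fosl2 at 5, while Fosb, Jun and Fos kept their ranks. Leaving out each library in turn gave 8 for both peak counts and 4 for stitched regions in each case, a median TSS fold of 12.0 to 13.6 and a median distal fold of 8.26 to 9.88.

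No paired analysis was possible because the data used form 1 group, so that no groups share replicate numbers; the within-library comparisons set genes, not groups, side by side. With 3 libraries no exact test can pass 0.05, and summits under 8 fragments are not represented, so a missing peak does not show missing acetylation. Whether the libraries differ in cell composition was not tested.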
